A study of Mus musculus with 168 samples.

Results

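Lumbar spinal motor neurons of mice with spinal muscular atrophy (SMA) were compared with those of control littermates at postnatal day 10, across all genes of the deposited expression table. The samples were those whose group label named lumbar spinal cord, day 10 and either genotype, which gave 9 of the 160 samples of mouse and population in the series. Of these 9 samples, 4 came from control mice and 5 from SMA mice, with 1 library per mouse. The SMA mice had the genotype Smn-/-, SMN2+/+, SMN∆7+/+ (the delta7 model), and the controls were Smn+/+ on the same SMN2+/+, SMN∆7+/+ background. Both groups therefore carried the human SMN2 gene and a human SMN transgene without exon 7, and differed in the mouse Smn gene, which the SMA mice lacked in every cell of the body. The study calls day 10 a late symptomatic stage. Neurons were cut by laser from frozen, stained sections, about 150 cells to a tube, and their polyA RNA was sequenced after Smart-seq2 amplification. Values are RPKM, that is reads per length of the gene and depth of the library, and each mouse is 1 replicate. Values per mouse are given in the order of control mice 247, 252, 253 and 254 and SMA mice 196, 199, 249, 250 and 258.

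SMA is a disease of lower motor neurons that follows from a shortage of the survival motor neuron protein (SMN). SMN is the core of a complex that loads rings of Sm proteins onto small nuclear RNAs to build the snRNPs of the spliceosome, and the lumbar motor neurons that move the hind limbs are among the cells the disease affects most. The transcription factor p53, held low by the ubiquitin ligase Mdm2, is activated by many kinds of cell stress and turns on genes for cell cycle arrest, cell death, DNA repair and its own feedback.

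Several genes that rose are textbook p53 targets, so the promoters of the called genes were searched for the p53 consensus decamer, the unit that occurs as a pair in p53 binding elements. The search used the stretch from 250 bases before to 50 after each RefSeq gene start on GRCm38.p6. The consensus reads the same on both strands, so each match was counted once. Of 27025 symbols with such a window, 2582 (9.55%) held at least 1 match, and so did 864 of the 10321 tested genes that had a window (8.37%). Windows were found for 83 of the 116 genes that rose, and 16 of those 83 (19.3%) held a match. The called genes were looked up by their current symbols and the tested genes by their names in the deposited table. These shares thus rest on unlike matching, and their difference was not tested. A symbol with several windows counted if any of them held a match. Of the 11 genes that fell, 8 had a window, and none of these 8 genes held a match. A pair of matches with at most 13 bases between them occurred in 20 of the 27025 symbols (0.074%), and 2 of these were among the genes that rose, Cdkn1a and Ifitm2. The 250 bases before the start are shown, with the matches in capitals, for these 2 genes and for Ccng1 and Mdm2, all described below. They lie at chr17:29090729-29090978 on the plus strand (Cdkn1a, 1 of 2 windows), chr7:140955962-140956211 on the minus strand (Ifitm2), chr11:40755287-40755536 on the minus strand (Ccng1) and chr10:117710759-117711008 on the minus strand (Mdm2). A match describes the letters only and does not show that p53 binds there.
Cdkn1a: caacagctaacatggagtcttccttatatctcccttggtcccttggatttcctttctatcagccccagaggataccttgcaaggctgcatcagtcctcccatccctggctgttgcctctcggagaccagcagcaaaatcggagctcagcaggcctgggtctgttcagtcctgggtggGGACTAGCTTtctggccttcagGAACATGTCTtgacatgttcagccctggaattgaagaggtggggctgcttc
Ifitm2: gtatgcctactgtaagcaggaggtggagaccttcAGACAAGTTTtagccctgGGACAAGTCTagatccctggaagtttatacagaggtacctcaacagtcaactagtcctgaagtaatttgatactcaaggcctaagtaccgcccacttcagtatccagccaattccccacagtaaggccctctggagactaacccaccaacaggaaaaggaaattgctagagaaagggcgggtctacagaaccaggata
Ccng1: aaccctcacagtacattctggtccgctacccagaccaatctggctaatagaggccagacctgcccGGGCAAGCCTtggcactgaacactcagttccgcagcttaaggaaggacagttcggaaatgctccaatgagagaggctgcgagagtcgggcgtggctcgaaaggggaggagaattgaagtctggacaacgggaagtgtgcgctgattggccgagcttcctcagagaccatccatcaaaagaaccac
Mdm2: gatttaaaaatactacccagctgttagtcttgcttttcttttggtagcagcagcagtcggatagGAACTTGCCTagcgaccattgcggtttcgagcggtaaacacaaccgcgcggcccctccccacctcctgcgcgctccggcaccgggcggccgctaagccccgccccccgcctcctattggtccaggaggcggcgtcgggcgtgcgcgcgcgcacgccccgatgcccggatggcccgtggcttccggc
The Cdkn1a pair runs from 73 to 42 bases before the start and the Ifitm2 pair from 216 to 189. The single matches end 176 bases before the start in Ccng1 and 177 in Mdm2.

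The libraries held 2.32 to 5.43 M reads (M as in Mb) and 15814 to 16926 genes above 0. Pearson correlations of log2(RPKM + 1) had a median of 0.940 between control mice, 0.933 between SMA mice and 0.929 across genotypes. On the first principal component, which held 19.3% of the variance, the control mice lay at 23.4 to 46.4 and the SMA mice at −45.8 to −9.61. Motor neuron markers were present in every library: choline acetyltransferase (Chat) was at 44.1, 43.0, 42.1 and 37.9 in controls and 22.4, 31.7, 33.7, 31.9 and 33.9 in SMA mice. Chat was thus lower in every SMA mouse than in every control. The summed level of 5 motor neuron markers overlapped between control (1214 to 1811 RPKM) and SMA mice (1296 to 1472), and 4 of the 5 had a negative estimate. RNA of other cells was present too, with astrocyte marker sums of 1055 to 1258 against 1032 to 1784 and oligodendrocyte sums of 607 to 1329 against 743 to 1106. None of the tested genes of 13 marker lists passed the test at day 10, and the summed levels of all 13 lists overlapped between genotypes. Inhibitory interneuron markers summed to 6.65 to 70.4 in controls, highest in mouse 253, and to 26.1 to 38.8 in SMA mice, and vessel markers to 7.31 to 20.8 against 15.7 to 36.1. The part of other cells in the results below was not tested. By Y-linked genes, 2 of 4 control and 1 of 5 SMA mice were male.

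The targeted gene was checked first. Smn1 (chr13:100124852-100137690, plus strand, GRCm38) read 16.5, 11.03, 39.9 and 18.5 RPKM in the controls and 0 in all 5 SMA mice. It was at least 43.0-fold lower in SMA mice, counting 3 reads per library as the limit of detection, and its difference on the log2(RPKM + 1) scale was −4.34 (SE 0.31, limma adjusted p = 3.55e-10). The labels of all 9 libraries thus matched the Smn1 level. The table also has a row for human SMN2, which both groups carry. SMN2 read 113, 133, 58.4 and 79.5 in controls and 56.8, 109.8, 145, 112 and 81.8 in SMA mice, with overlapping groups and a log2 difference of 0.07 (SE 0.27, adjusted p = 0.966). How reads were divided between SMN2, the SMN∆7 transgene and mouse Smn1 is not given in the sources used here.

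Gene expression in SMA lumbar motor neurons at day 10 moved mostly upwards. Of 16382 genes tested with limma, 116 were higher in SMA mice (0.708%) and 11 were lower (0.0671%) at an adjusted p under 0.05. Rises thus made up 91.3% of the calls. After quantile normalization of the libraries, 87 genes were higher and 24 lower, which put the rises at 78.4%. The rises ranged from 0.46 to 5.54 on the log2 scale with a median of 1.68, and 86 of them were at least 1. In 104 of the 116, every SMA mouse was above every control mouse. The falls were smaller, from −4.34 to −0.60 with a median of −0.86, and 10 of 11 did not overlap between genotypes. Such separation is partly built into calls made on these same mice. The share of all tested genes without overlap was not counted, so these counts are no separate support. The median difference of all tested genes was 0.05, and 56.2% of them had a positive estimate. After quantile normalization that median was −0.015, so the small upward shift of all genes depends on the normalization. The count of calls rested on individual mice: without SMA mouse 250 it was 58 higher and 6 lower, without SMA mouse 249 it was 75 and 13, and without control mouse 247 it was 68 and 8. Across the 9 fits that each left out 1 mouse, 44 of the 116 rises and 3 of the 11 falls, Smn1, Arhgap9 and Snhg11, passed every time.

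**Figure D1:**
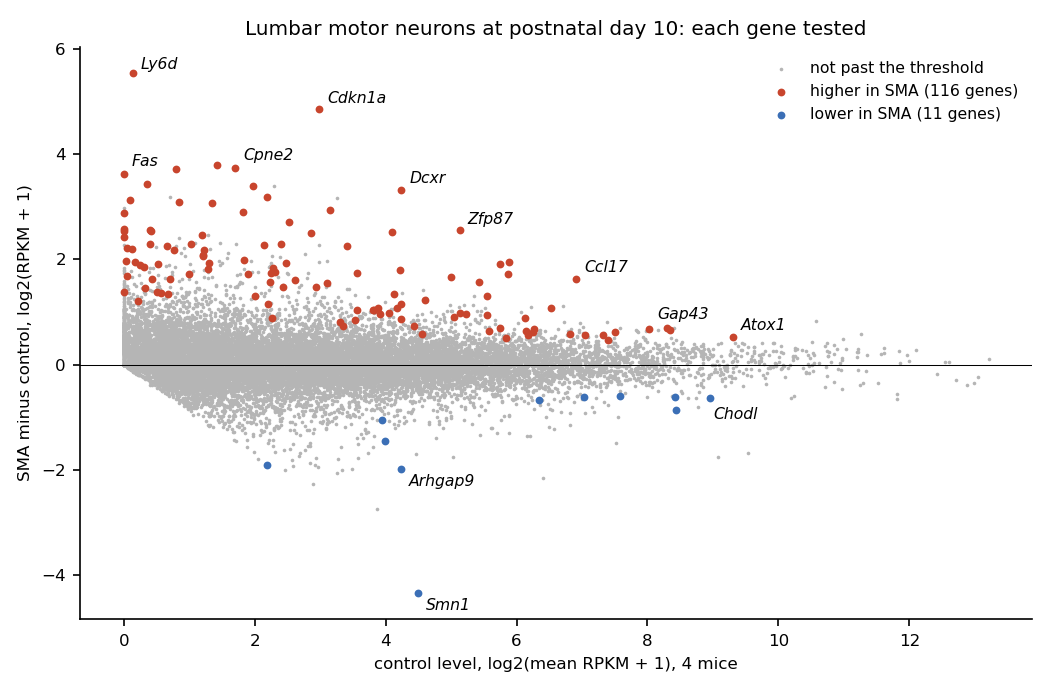
Difference between SMA and control lumbar motor neurons at day 10 (vertical axis, log2(RPKM + 1)) against the control level (horizontal axis, log2(mean RPKM + 1) over 4 mice) for each of the 16382 genes tested. The 116 coloured points above 0 reach 5.54 and occur at all control levels, and the 11 below 0 reach −4.34 at Smn1.

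Rises occurred at low and at high control levels. In controls 31 of the 116 had a mean under 1 RPKM, out of 3336 such genes tested (0.929%), and 10 had a mean of at least 100 RPKM, out of 1058 (0.945%). The share was 0.545% for control means of 1 to 10 and 0.732% for 10 to 100. The share under 1 RPKM depends on the filter, which asks for at least 1 RPKM in at least 4 lumbar samples. Genes that low in controls could enter through the SMA mice where they were high, so their share is not comparable with the others. A fall from so low a level also has little room on the log2(RPKM + 1) scale. Of the 11 falls, 10 had a control mean of at least 10 RPKM and 5 of at least 100. Of the 116 rises, 107 had a position in GENCODE M21, 92 of these were protein coding, 4 were on the X chromosome and none on the Y. For the 116 genes, which were called on these same mice, the median log2 difference from the control mean was taken per mouse. It was 1.65, 1.14, 1.73, 1.87 and 1.40 in mice 196, 199, 249, 250 and 258, lowest in 199 and highest in 250. Library depths were 4.43, 5.42, 2.58, 2.32 and 3.40 M reads in the same order, highest in 199 and lowest in 250. The part of depth in this order was not tested.

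Targets of p53 made up 13 of the 116 rises. Over 4 lists of p53 targets, 13 of 62 tested members rose (against 0.708% of all genes), none fell, and 56 had a positive estimate (56.2% of all genes did). Their median difference was 0.63, against 0.05 for all genes tested. The lists were chosen with earlier results of these data known, so these shares describe the members and are no independent support. The members are ordered here by what they do: arrest of the cell cycle first, then cell death, then feedback and metabolism.

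The arrest genes moved most, with 6 of 14 past the threshold and a median of 1.63. Cdkn1a (chr17:29090976-29100727, plus strand) encodes p21, an inhibitor of cyclin-dependent kinases. It read 3.09, 5.09, 15.4 and 4.002 RPKM in controls and 176, 128, 235, 276 and 184 in SMA mice, a mean of 6.90 ± 5.73 (SD, n = 4) against 199.8 ± 56.9 (SD, n = 5). The lowest SMA mouse was far above the highest control, and the log2 difference of 4.85 (SE 0.40, adjusted p = 7.79e-09) was the second largest rise by size after Ly6d. Ccng1 (chr11:40748552-40755311, minus strand), cyclin G1, read 12.9, 12.2, 10.6 and 7.46 in controls and 47.8, 27.7, 34.8, 49.2 and 33.0 in SMA mice. The groups were clearly apart, at 1.74 (SE 0.19, adjusted p = 1.69e-06). Plk2 (chr13:110395046-110400844, plus strand), a polo-like kinase of neurons and dividing cells, read 3.82, 5.02, 4.50 and 3.70 against 31.3, 17.8, 27.3, 32.7 and 18.6. Its SMA mean was 5.99 times the control mean (log2 2.30, SE 0.30, adjusted p = 4.19e-05). Gtse1, a microtubule-binding protein that also restrains p53, was at 0 to 0.728 in controls and 2.42 to 5.89 in SMA mice (log2 1.91, adjusted p = 0.00792), and its adjusted p was 0.0936 with a pseudocount of 0.1.

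Btg2 and Ptprv lost their calls when single mice were left out. Btg2, an antiproliferative gene that is also counted among the immediate early genes, read 2.42, 2.82, 0 and 0.498 against 4.94, 5.86, 7.47, 12.2 and 3.86. Its groups did not overlap (log2 1.81, SE 0.42, adjusted p = 0.0274), but it passed in 5 of the 9 fits with 1 mouse left out, with an adjusted p of up to 0.146 without control 253. Ptprv, a receptor-type tyrosine phosphatase, was at 0 in 3 controls and 6.13 in mouse 254, and at 13.03, 4.86, 15.3, 23.6 and 13.7 in SMA mice. Its groups overlapped (log2 3.07, SE 0.71, adjusted p = 0.0274), it passed in 2 of the 9 fits, and it shares its place with an antisense gene, Gm10535. Ckap2, a spindle protein, had means of 0.791 and 4.10 RPKM and an adjusted p of 0.0557.

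Among the p53 targets of cell death, 4 of 17 tested members rose and all 17 had a positive estimate, also after quantile normalization. Fas (chr19:34290666-34327772, plus strand), the death receptor, was at 0 in all 4 controls and at 10.0, 3.23, 15.4, 19.7 and 16.6 in SMA mice. Against 3 reads per control library it was at least 25.5-fold higher (adjusted p = 0.000248). Pmaip1, which encodes the BH3-only protein Noxa, read 0.418, 0.300, 0.132 and 0.413 against 9.38, 4.81, 6.87, 8.79 and 4.88. The SMA mean was 22.0 times the control mean, with no overlap (log2 2.56, SE 0.38, adjusted p = 0.000286). Lrdd, now named Pidd1, whose product assembles the caspase-2 activating PIDDosome, read 0.0593, 1.02, 2.82 and 1.23 against 11.4, 7.39, 13.8, 12.2 and 8.39 (log2 2.46, adjusted p = 0.00217). Tnfrsf26, a further member of the tumour necrosis factor receptor family, was at 0.124 in control 247, at 0 in the other controls and at 1.28 to 4.42 in SMA mice (log2 1.68, adjusted p = 0.000248). These 4 genes passed in all 9 fits with 1 mouse left out.

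The BH3-only and pore-forming members best known for acting on mitochondria did not all stand apart. Bax, a pore-forming protein, had means of 71.8 and 85.6 RPKM with overlapping mice and an adjusted p of 0.862. Bbc3, which encodes Puma, had means of 2.26 and 4.15 and an adjusted p of 0.617. Siva1, a proapoptotic partner of death receptors, had means of 14.8 and 34.8 and an adjusted p of 0.129. Perp, a membrane protein, had means of 6.83 and 13.5 and an adjusted p of 0.458. Of a wider list of death receptors and Bcl2 family members, 2 of 25 tested rose (0.708% of all genes), again Fas and Pmaip1.

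Feedback and metabolic targets gave 3 rises among 23 tested. Mdm2 (chr10:117688875-117710758, minus strand), which marks p53 for destruction, read 17.0, 15.5, 17.0 and 12.7 in controls and 27.9, 23.9, 41.7, 38.6 and 28.0 in SMA mice. All SMA mice were above all controls (log2 0.98, SE 0.24, adjusted p = 0.0468), but the gene passed in 1 of the 9 fits with 1 mouse left out. Dcxr (chr11:120725399-120727281, minus strand), a dicarbonyl and L-xylulose reductase, read 14.6, 14.3, 20.7 and 21.9 against 132, 99.0, 257, 258 and 247. Its SMA mean was 11.1 times the control mean (log2 3.32, SE 0.50, adjusted p = 0.000307). Tap1, the transporter that loads peptides onto MHC class I, read 0.270, 0.676, 1.36 and 0 against 3.89, 7.73, 7.28, 10.7 and 3.43 (log2 2.25, SE 0.42, adjusted p = 0.00415). The antisense gene Psmb9 overlaps Tap1, and whether counting used strand is not given in the sources used here. After quantile normalization 2 of these 3 genes passed.

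The gene for p53 itself was close to the threshold. Trp53 read 7.16, 12.3, 6.73 and 6.80 in controls and 15.9, 13.4, 28.4, 24.8 and 14.3 in SMA mice, without overlap, and its adjusted p was 0.0506 (log2 1.12, SE 0.28). None of the 12 tested genes in the list of p53 and its regulators passed, Trp53 included, and their median difference was 0.12. No p53 target of DNA repair and nucleotide supply passed either, out of 8 tested. Polk, a translesion DNA polymerase of that list, had means of 0.555 and 4.10 RPKM and an adjusted p of 0.0506.

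**Figure D2:**
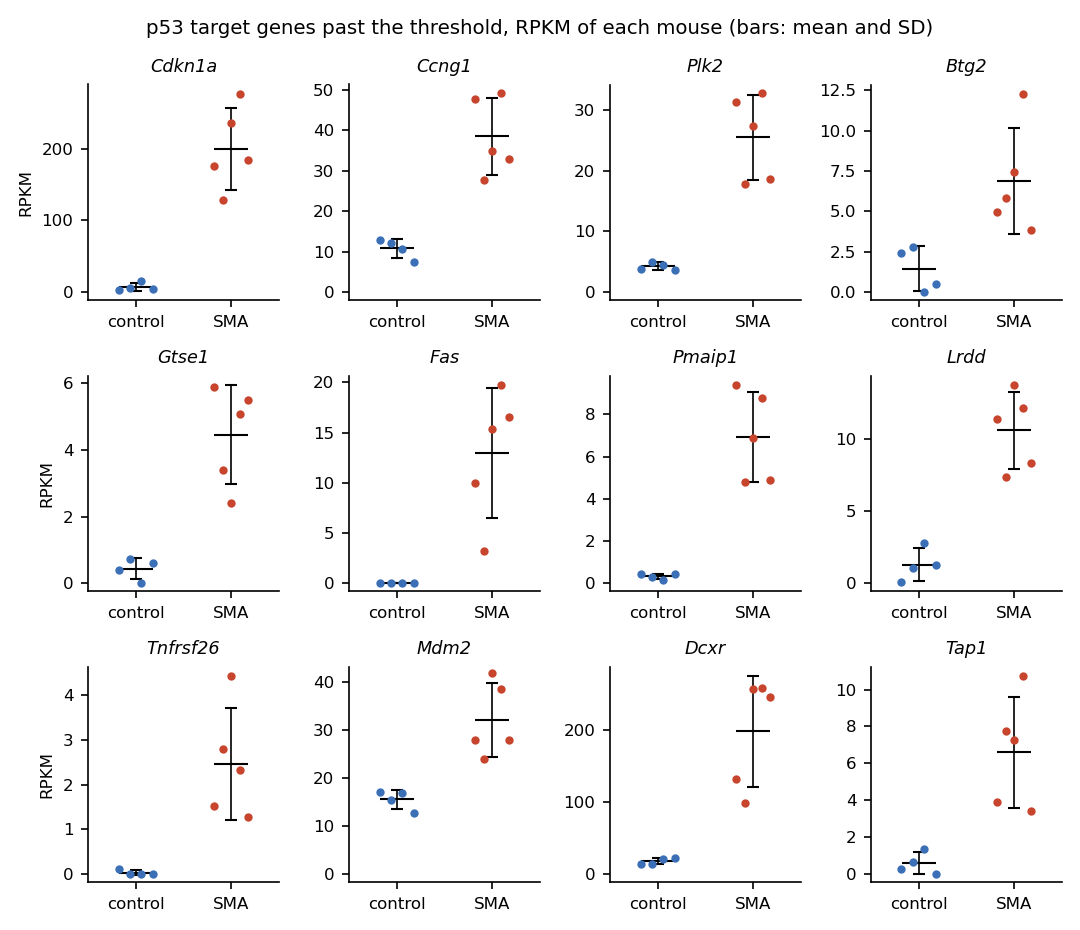
RPKM of each mouse (points) with the mean and SD (bars) for 12 of the 13 p53 targets past the threshold, in 4 control and 5 SMA mice, each panel with its own axis from 0. The SMA points lie above the control points in all 12 panels, from 176 against 3.09 RPKM for the first mice of Cdkn1a to 27.9 against 17.0 for those of Mdm2. The target not drawn is Ptprv, whose groups overlap.

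Beyond the p53 lists, the largest rises were of genes with little or no expression in control motor neurons. Ly6d, a small glycolipid-anchored surface protein known from lymphoid and epithelial cells, was at 0 in 3 controls and 0.395 in mouse 254, and at 52.3, 12.6, 128, 149.6 and 22.5 in SMA mice. The spread among SMA mice was wide, but each was above every control (log2 5.54, SE 0.85, adjusted p = 0.000334). Cpne2, a copine that binds membranes when calcium rises, read 0.348, 5.59, 1.16 and 1.87 against 35.5, 28.6, 44.9, 48.6 and 24.4 (log2 3.73, SE 0.44, adjusted p = 8.89e-06). Trim72 (chr7:128003949-128011033, plus strand), which patches torn cell membranes in muscle, read 0.779, 0.418, 1.18 and 0.807 against 11.1, 9.67, 24.0, 17.9 and 11.8. With 18.7 times the control mean and a tight control group, it had the second lowest adjusted p among the rises, 6.42e-08 (log2 3.09, SE 0.29). Csrp3, a LIM protein of striated muscle, was at 0 to 0.873 in controls and at 22.7, 5.90, 32.5, 22.9 and 2.09 in SMA mice (log2 3.42, adjusted p = 0.00223). Skeletal muscle markers summed to 0.546 to 5.38 RPKM in controls and 0.558 to 2.84 in SMA mice. Of the 5 genes in that list, Myh3 and Tnnt3 were at 0 in all 9 libraries, so its level was near the floor. The part of muscle RNA in the rises of Trim72 and Csrp3 was not tested.

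Of the remaining large rises, those of Tcea3 and Zfp87 passed in all 9 fits with 1 mouse left out. Tcea3, a transcription elongation factor, read 3.83, 2.54, 0.280 and 3.49 against 25.1, 7.67, 44.5, 36.5 and 18.1 (log2 2.91, adjusted p = 0.000118). Zfp87, a zinc finger gene, had means of 34.0 and 196 RPKM (log2 2.56, adjusted p = 5.46e-05). Tcea3 had an adjusted p of 0.0776 with a pseudocount of 0.1. Ddit4l, a relative of the mTOR inhibitor Ddit4, was at 0 to 0.146 in controls and at 8.96, 3.26, 23.5, 25.7 and 1.51 in SMA mice. It passed in 6 of the 9 fits (log2 3.12, adjusted p = 0.0185). Irgm1, an interferon-induced GTPase, was at 0 to 2.02 in controls and at 11.8, 12.96, 11.6, 72.6 and 23.4 in SMA mice, highest in mouse 250 (log2 3.72, adjusted p = 0.0162, 6 of 9 fits).

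Of 12 tested MHC class I and interferon genes, 2 rose, Tap1 and Ifitm2, where 0.708% of all genes did. Ifitm2, an antiviral membrane protein with the promoter pair shown above, read 7.94, 3.16, 1.68 and 2.18 against 10.8, 15.02, 12.9, 11.7 and 15.9. The SMA mice did not overlap the controls (log2 1.75, adjusted p = 0.00903), and the call ended at 0.0529 without control 253. Psmb9, an immunoproteasome subunit, had means of 2.30 and 12.3 RPKM and an adjusted p of 0.119.

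Several rises were of unnamed or little-studied transcripts, among them Gm26707, Gm11974, Gm15714, 1700007K13Rik and 2010001M06Rik. Gm26707 had means of 6.26 and 33.1 RPKM (log2 2.50, adjusted p = 0.000959) and passed in all 9 fits. Gm11974 had means of 9.67 and 46.3 (log2 2.26, adjusted p = 0.00795, 8 of 9 fits). Gm15714, 1700007K13Rik and 2010001M06Rik had SMA means of 42.2, 54.5 and 33.3 RPKM and passed in 2, 3 and 2 of the 9 fits. Snord13, a small nucleolar RNA, was at 0 in 3 controls, 6.74 in control 253 and 67.3, 21.3, 14.9, 12.4 and 19.8 in SMA mice (log2 3.80, adjusted p = 0.0109). Such a short RNA gains many RPKM from a single read and is poorly captured as polyA RNA.

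Splicing genes, the downstream side of SMN, changed in a few members. Of 42 tested snRNP proteins 3 rose (0.708% of all genes), none fell, and 33 had a positive estimate (56.2% of all genes), with a median of 0.31. Snrpa1 (chr7:66059003-66074587, plus strand), the U2 snRNP protein A′, read 43.7, 37.8, 47.7 and 38.5 in controls and 122, 106, 138, 119 and 151 in SMA mice. The groups were tight and apart by 3.03 times (log2 1.57, SE 0.21, adjusted p = 4.19e-05). Lsm2 and Lsm4 belong to the ring that binds U6 RNA. Lsm2 read 39.9, 43.4, 25.2 and 27.5 against 53.8, 57.2, 77.8, 79.3 and 68.3 (log2 0.98, adjusted p = 0.0151). Lsm4 had means of 46.6 and 72.4 (log2 0.63, adjusted p = 0.0274). Lsm2 passed in 6 and Lsm4 in 5 of the 9 fits with 1 mouse left out. Prpf31, which joins the U4/U6 and U5 snRNPs, had means of 35.6 and 79.8 and an adjusted p of 0.0607.

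In the SMN complex, Smn1, the gene that SMA mice lack, fell and Gemin4 rose among 9 members tested. Over all genes 0.0671% fell and 0.708% rose. Gemin4 read 13.4, 0.847, 0 and 0 in controls and 18.3, 15.8, 30.0, 25.8 and 12.6 in SMA mice, with control 247 inside the SMA range (log2 3.18, SE 0.76, adjusted p = 0.0351). It passed in 3 of the 9 fits and overlaps Glod4 on the same strand, so its reads may be shared. Gemin2, the direct partner of SMN, had means of 5.05 and 3.79 RPKM and an adjusted p of 0.855, and the helicase Ddx20 (Gemin3) had 2.36 and 3.59 with 0.652.

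Few genes fell, and no list held more than 1 of them. Besides Smn1 the largest fall on the log2(RPKM + 1) scale was of Arhgap9 (chr10:127321964-127329943, plus strand), a GTPase-activating protein. It read 12.1, 21.3, 10.8 and 27.0 in controls and 5.27, 2.31, 2.20, 1.96 and 8.03 in SMA mice, without overlap (log2 −1.98, SE 0.36, adjusted p = 0.00356). The gene Gli1 overlaps it on the other strand. Lhpp, a phosphatase for phosphohistidine and pyrophosphate, read 12.5, 10.6, 22.4 and 13.9 against 8.12, 2.52, 5.04, 3.21 and 5.47 (log2 −1.46, adjusted p = 0.0107). Mccc2, an enzyme of leucine breakdown, had means of 14.5 and 6.31 (log2 −1.05, adjusted p = 0.0327). Impdh1, an enzyme of guanine nucleotide synthesis, had means of 130.4 and 84.1 (log2 −0.62, adjusted p = 0.0341). The noncoding RNA Snhg11 read 354, 305, 359 and 347 against 212, 233, 255, 208 and 213. Its narrow spread within both groups gave an adjusted p of 0.0107 (log2 −0.60). Miat, another long noncoding RNA of neurons, had means of 79.8 and 49.9 (log2 −0.66, adjusted p = 0.0107). D4Wsu53e had means of 346 and 194 (log2 −0.86), BC049762 3.54 and 0.0976 (log2 −1.91), and Susd2 189 and 124 (log2 −0.60), with overlapping mice for Susd2 alone. Of these, Lhpp, Miat and D4Wsu53e passed in 8 of the 9 fits with 1 mouse left out, Mccc2, Impdh1 and Susd2 in 4 and BC049762 in 2. With only the day 10 groups fitted, 4 of the 11 falls passed, and D4Wsu53e, Lhpp, Miat, Chodl, Mccc2, Impdh1 and Susd2 did not. Arhgap9 had an adjusted p of 0.237 with a pseudocount of 0.1. In that setting BC049762 had the larger fall, −4.42 against −2.27 for Arhgap9, and neither gene passed.

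A marker of the fast motor neurons was among the falls. Chodl (chr16:78930948-78951733, plus strand), chondrolectin, a membrane protein of fast motor neurons, read 546, 438, 471 and 516 in controls and 416, 318, 373, 225 and 279 in SMA mice. Every SMA mouse was below every control, and the mean was 0.653 of the control mean (log2 −0.64, SE 0.14, adjusted p = 0.0226). In pooled cells such as these, fewer cells of a type and less RNA per cell cannot be told apart. Chodl passed in 5 of the 9 fits with 1 mouse left out, and its adjusted p was 0.0997 without SMA mouse 250. It was the one call among 16 tested markers of fast, slow and gamma motor neurons, where 0.0671% of all genes fell. The list had 6 positive and 10 negative estimates, with a median of −0.06. Pvalb, another member, had positive estimates of 0.83 to 1.31 over the 9 fits and did not pass. Mmp9, a protease of fast motor neurons, read 52.4, 55.3, 76.3 and 66.1 against 38.5, 41.1, 49.4, 18.7 and 42.3. These values do not overlap, but the log2 difference of −0.75 had an SE of 0.42 in the shared fit (adjusted p = 0.583). None of 16 motor neuron identity genes passed, including Chat at means of 41.8 and 30.7 (adjusted p = 0.396) and Isl1 at 14.0 and 18.2 (adjusted p = 0.787).

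**Figure D3:**
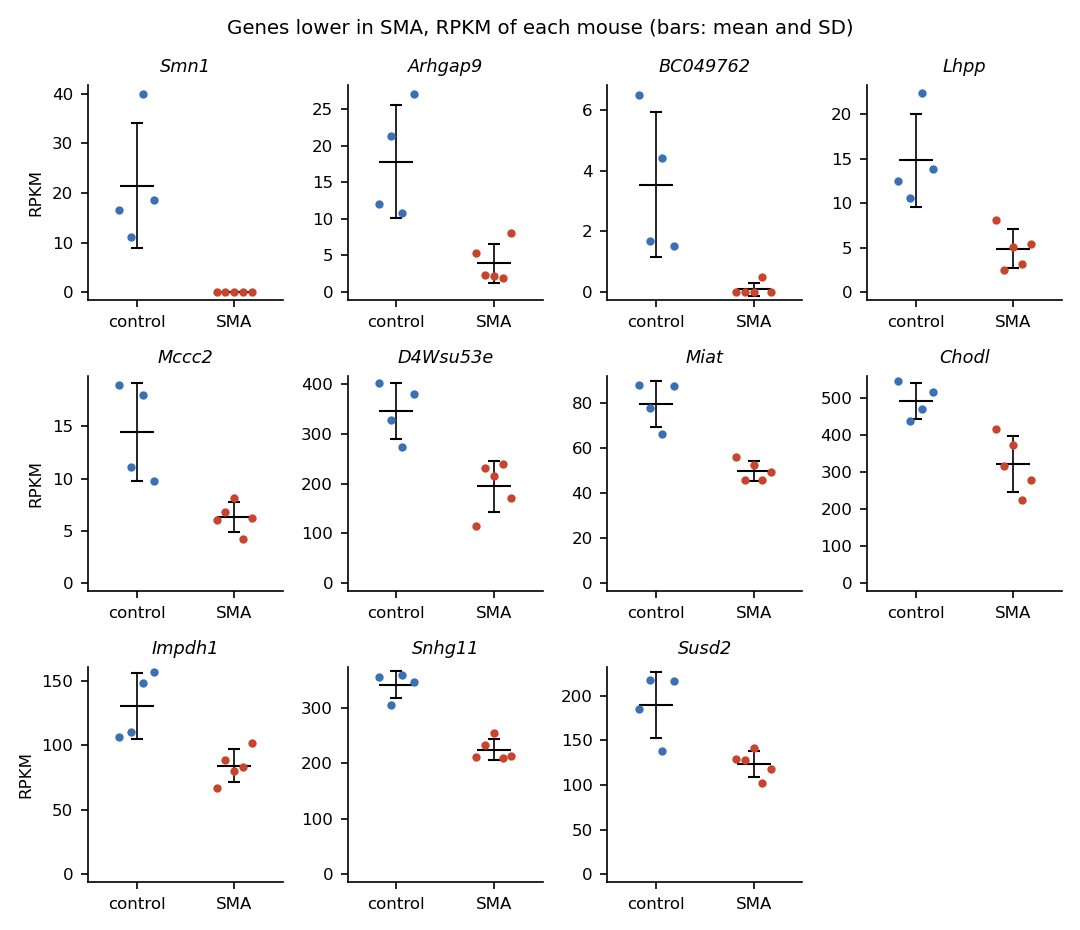
RPKM of each mouse (points) with the mean and SD (bars) for the 11 genes lower in SMA, in 4 control and 5 SMA mice, each panel with its own axis from 0. Smn1 is at 0 in all 5 SMA mice, Chodl ranges from 438 to 546 in controls and 225 to 416 in SMA mice, and the groups overlap in the Susd2 panel.

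The axonal cytoskeleton and transport genes held 1 rise and several values near the threshold. Gap43, a growth cone protein, read 256, 265, 219 and 298 in controls and 394, 385, 527, 319 and 469 in SMA mice, without overlap (log2 0.68, SE 0.14, adjusted p = 0.0108). It passed in 8 of the 9 fits, and at 0.0595 it missed the threshold without control 253. The neurofilament genes Nefm and Nefh were lower in each SMA mouse than in each control. Nefm had means of 6713 ± 453 (SD, n = 4) and 5457 ± 357 (SD, n = 5) and Nefh 1674 ± 98.8 and 1245 ± 138, with limma adjusted p of 0.0526 and 0.0542. Map1b, a microtubule-associated protein, had means of 259 and 207 (adjusted p = 0.143), and the axonal motor Kif5a 105 and 83.4 (adjusted p = 0.198). After quantile normalization the list of 27 tested genes had 1 rise and 1 fall.

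Few genes of the stress, synapse and axon injury lists were called, where 0.775% of all genes tested were. At that share lists of this size would hold few calls or none, so the counts do not show them unchanged. In the list of the unfolded protein and integrated stress responses, Ddit3, the transcription factor CHOP, was the only call among 25 tested. It read 39.2, 59.0, 47.6 and 37.2 against 71.2, 76.2, 103, 92.3 and 101 (log2 0.95, SE 0.21, adjusted p = 0.0236), and it passed in 4 of the 9 fits. Trib3, a target of CHOP, had means of 0.196 and 1.11 and an adjusted p of 0.410. None of 23 axon injury genes passed, nor did any of 24 synaptic vesicle genes or 13 organizers of the neuromuscular junction. Atf3, an injury-induced transcription factor, had means of 0.551 and 1.32 (adjusted p = 0.871). Of 23 tested neuropeptide precursors 1 rose: Iapp, amylin, was at 0 in all controls and at 15.3, 0, 1.84, 14.4 and 9.80 in SMA mice. With mouse 199 at 0 the groups overlapped (adjusted p = 0.0351, 2 of 9 fits).

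In the metabolic lists few genes or none were called, beside 0.708% higher and 56.2% with a positive estimate over all genes. All 19 tested genes of cholesterol synthesis had a negative estimate, also after quantile normalization, with a median of −0.42 and no member past the threshold. Nsdhl, a sterol dehydrogenase, read 43.4, 35.4, 40.2 and 24.8 against 14.3, 21.4, 29.8, 15.7 and 20.3 (adjusted p = 0.0635). Sqle, squalene epoxidase, had means of 66.3 and 41.0 (adjusted p = 0.111). Of 94 tested genes of oxidative phosphorylation 80 had a positive estimate, with a median of 0.22, and 2 rose. These were Sdhd, a membrane subunit of complex II, at means of 159 and 236 (log2 0.56, adjusted p = 0.0162, 4 of 9 fits), and Cox6b2, a cytochrome c oxidase subunit best known from testis, at 16.1 and 65.8 (log2 2.52, adjusted p = 0.00744, 8 of 9 fits). With only the day 10 groups fitted, their adjusted p were 0.136 and 0.0554. Cox6b2 stood at 45.4 in control 253 and at 4.30 to 7.97 in the other controls. Mitochondrial ribosomal proteins had 69 of 75 positive estimates, a median of 0.27 and no calls. Cytosolic ribosomal proteins had 3 rises among 80 tested, Rps21, Rps27l and Rps28, and none after quantile normalization. Rps27l, a ribosomal protein gene known as a p53 target though outside the 4 lists, read 362, 302, 278 and 348 against 516, 439, 538, 587 and 476 (log2 0.66, adjusted p = 0.0450, 1 of 9 fits). Atox1, a copper chaperone and one of the most abundant genes called, read 578, 661, 589 and 689.5 against 875, 839, 862, 971 and 998 (log2 0.53, SE 0.10, adjusted p = 0.00660, 9 of 9 fits).

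**Figure D4:**
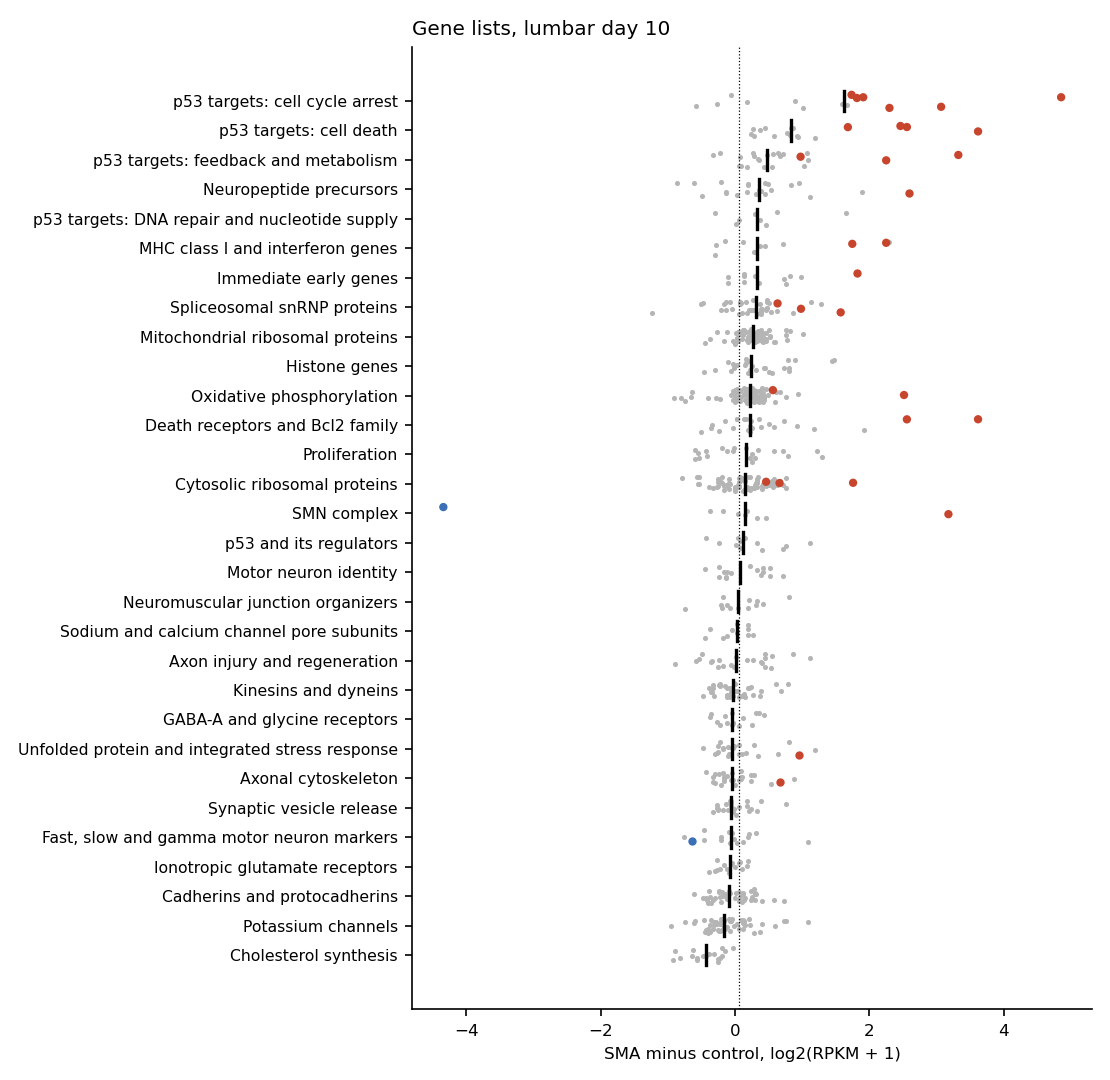
Differences between SMA and control lumbar motor neurons at day 10 (horizontal axis, log2(RPKM + 1)) for the tested members of 30 gene lists, with the median of each list and the median of all genes (dotted line at 0.05). The p53 targets of cell cycle arrest have the highest list median, 1.63, and cholesterol synthesis the lowest, −0.42, with all 19 members below 0.

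The same contrast at earlier ages shows how far these genes had moved before day 10. Of the 16382 genes, 6 were higher (0.0366%) and 2 lower (0.0122%) in SMA mice at day 5. At day 2, 1 was higher (0.0061%) and 1 lower (0.0061%). In either direction these were 0.0488% and 0.0122% of the genes. Snrpa1 rose and Smn1 fell at all 3 ages: Snrpa1 by 1.53 at day 2, 1.39 at day 5 and 1.57 at day 10 on the log2 scale, with little change over time. Cdkn1a stood at 1.69 at day 2 (adjusted p = 0.281), 3.45 at day 5 (5.25e-06) and 4.85 at day 10. Ccng1 went from 0.66 through 0.97 to 1.74 and passed at days 5 and 10. Dcxr and Tap1 had nearly the same estimates at day 5 as at day 10, with 3.33 and 2.24 against 3.32 and 2.25. Crip2, a LIM domain protein, was the remaining gene called at day 5 that rose at day 10, to 232 from 58.0 RPKM. Fas, Pmaip1 and Plk2 had estimates of 1.86, 1.23 and 1.19 at day 5 and passed at day 10 alone.

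Over the 116 genes, which were chosen for their rise at day 10, the median difference was 0.17 at day 2 and 0.44 at day 5, and 89 and 99 had a positive estimate. The median over the 62 p53 targets was 0.22 at day 2, 0.50 at day 5 and 0.63 at day 10. The cholesterol list was at −0.04, −0.02 and −0.42. Interaction terms tested, gene by gene, for a genotype difference that changes with age. No gene passed in limma's interaction for day 10 against day 2 or against day 5 (0% of 16382 each), and 1378 and 1151 had an unadjusted p under 0.05. Leaving out 1 mouse gave up to 3 genes (without SMA 199) for day 2, 2 without control 252 or 253, and 1 for day 5 (without control 253). A rise past the threshold at day 10 and not at day 5 is therefore not shown to differ between these ages.

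The same mice gave neurons of cranial nuclei at day 10: ocular motor neurons (9 samples), which the disease largely spares, facial motor neurons (8 samples) and motor neurons of the vagus nucleus (9 samples). The genes of the lumbar rises had mostly positive estimates in facial and ocular neurons and about as many negative as positive ones in the vagus. Of the 116 lumbar genes, 108 were tested in ocular neurons, where 103 had a positive estimate (median 0.94) and 30 passed, against 0.334% of all genes. In facial neurons 108 of 114 were positive (median 1.29) and 41 passed, against 0.562% of all genes. In vagus neurons 48 of 98 were positive (median −0.00306) and none passed, where no gene at all was called higher (0%). Of the 11 lumbar falls, the estimate was negative for 10 of 10 tested in ocular neurons, where 0.0252% of all genes were called lower, for 8 of 10 in facial (0.104%) and for 5 of 9 in vagus neurons (0.00599%). Smn1 passed in all 3 populations and Chodl in the facial neurons.

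The difference between populations was tested as well. Against ocular neurons no gene differed in its response (0% of 18073, 693 at an unadjusted p under 0.05). Against facial neurons 1 of 19238 did (0.0052%): Bglap2, with a lumbar minus facial difference of −3.07 on the log2 scale. Bglap2 did not reach the filter on low values in lumbar neurons alone, where it was at 0 in all controls and at 0.624 to 8.15 RPKM in SMA mice, and its facial difference was 4.72. Bglap2 is a near-identical copy of the osteocalcin gene Bglap, so reads may be split between them. Against vagus neurons 25 of 19128 genes differed (0.131%), 24 of them with the higher response in lumbar neurons, and 20 of the 116 lumbar rises were among them. Of the 25, 13 did not reach the filter on low values in the vagus neurons alone and entered through the fit over both populations: Fas, Pmaip1, Tnfrsf26, Ly6d, Tcea3, Arhgap9, Ces2e, Slc13a4, Bglap, Sec16b, Rin1, Robo3 and Bglap2. Cdkn1a had a lumbar response of 4.85 and a vagus response of 0.18, a difference of 4.67 (SE 0.58, adjusted p = 1.33e-06). Trim72 differed by 3.76 (SE 0.42, adjusted p = 1.7e-07), with −0.67 in the vagus. Cpne2, Ccng1 and Pmaip1 differed by 3.98, 2.15 and 2.76, with adjusted p of 9.62e-06, 0.00011 and 0.000529. Mdm2, Dcxr, Lrdd and Tap1 did not pass this test, with differences of 0.78, 3.34, 2.88 and 2.68 and adjusted p of 0.805, 0.272, 0.114 and 0.146. Arhgap9 was the gene with the lower response in lumbar neurons, by −1.88 (adjusted p = 0.0187). Fits were repeated without 1 animal at a time, leaving out its day 10 samples of both populations. The counts were then up to 4 against ocular (SMA 258), up to 5 against facial (SMA 196) and as few as 12 against vagus (SMA 249).

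Genes outside the p53 lists had other values across these populations. Snrpa1 was higher by 1.29 in ocular and 1.41 in facial neurons, both past the threshold, and by 1.26 in the vagus (adjusted p = 0.870). Chodl was at −0.72 in ocular (adjusted p = 0.0540), −1.15 in facial (0.0100) and −0.01 in vagus neurons. Ddit3 was at 0.09, −0.44 and −0.25, and Lsm2 at −0.08, −0.15 and 0.00, with no call in these populations. Neither gene passed a test of the difference, so a lumbar-specific rise was not shown. Csrp3 was at −0.50 in facial and 0.60 in vagus neurons, and Irgm1 at 0.17, −0.08 and 1.79 in the 3 populations. The oxidative phosphorylation list, at 0.22 in lumbar neurons, had medians of −0.03 in ocular and −0.14 in facial neurons. The cholesterol list had −0.38 and −0.50 there and −0.15 in the vagus.

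**Figure D5:**
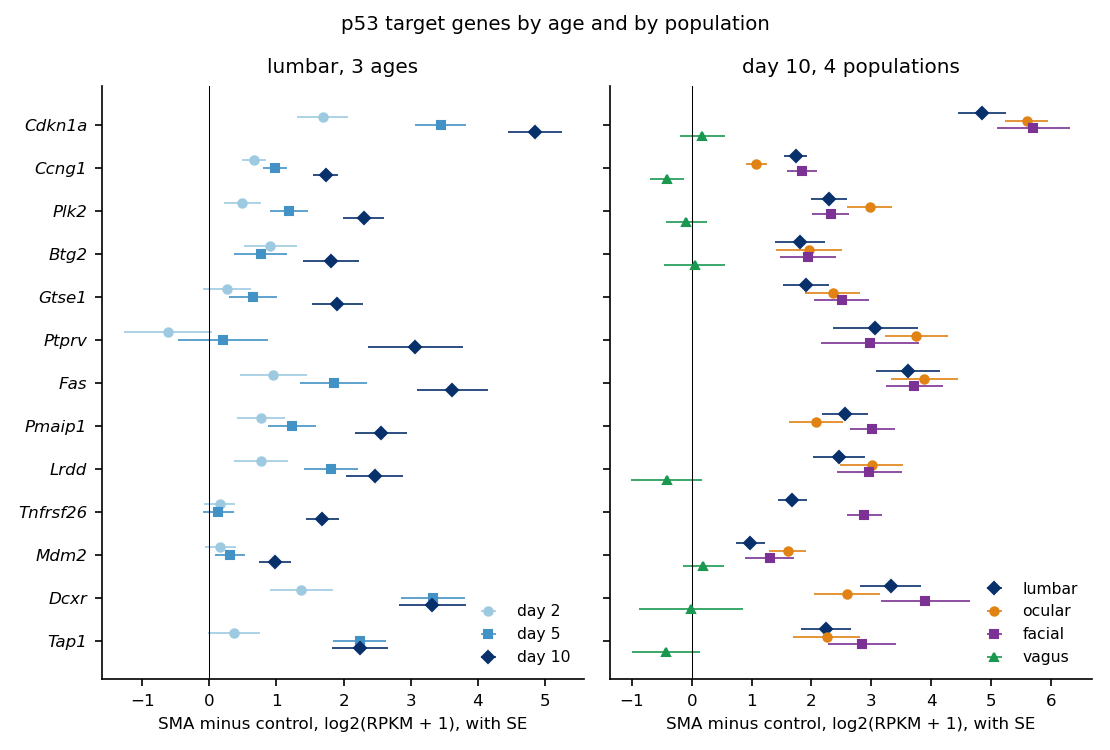
SMA minus control difference with its SE (horizontal axis, log2(RPKM + 1)) for the 13 p53 targets that rose in lumbar motor neurons at day 10, by age in lumbar neurons (left) and by population at day 10 (right). Cdkn1a runs from 1.69 at day 2 to 4.85 at day 10 in lumbar neurons and lies at 5.59 in ocular, 5.71 in facial and 0.18 in vagus neurons.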

How the data were processed

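The authors deposited 1 table of RPKM, reads scaled by gene length and sequencing depth, with 39410 rows and 168 libraries as columns. Per the submitters' processing notes, STAR 2.4.1c was used, with the builds mm10 and hg19. The read counter, its strand setting and the annotation are not given in the sources used here. Depth per library was recovered from the equal steps of low RPKM values. Only 67.6% to 72.8% of low values fell within 0.005 reads of a whole read, so no count test was run. Limits of detection count 3 reads and cover counting error only, because no molecular identifiers were used in Smart-seq2.

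RPKM of a mouse's libraries were averaged, and log2(RPKM + 1) was fitted with limma 3.58.1 in R 4.3.3 (lmFit, eBayes with a trend). The fit held the 6 lumbar groups of genotype and age (30 samples from 31 libraries), so that they shared an estimate of spread, and genes with an RPKM of at least 1 in at least 4 samples. Fold changes on this scale understate the change of low genes. Tests were two-sided and p-values adjusted by Benjamini and Hochberg over all genes tested, with a threshold of 0.05. Interactions compared the genotype difference between ages and, in fits over both populations, between lumbar and other neurons at day 10. The scripts were tested on simulated data. The controls are called littermates in the series' design, but the labels do not say which mice shared a litter, so p-values measure the spread between these mice.

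Mouse numbers mark 1 animal across populations, which pairs those samples by animal. Deviations from the group means correlated at −0.0187 to 0.129 between the lumbar and the other sample of a mouse. Lumbar SMA and control samples are not paired.

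Named genes were Smn1, the 20 largest rises with no overlap between genotypes and an SMA mean of at least 10 RPKM, all falls, the 5 genes past the threshold with the highest control means, in each list up to 6 members past the threshold and the 3 next by p, and up to 5 genes per interaction. Text names outside this rule are said to be chosen after their values were seen or are members of the lists. The samples, the 30 gene lists and the 13 marker lists were chosen with earlier results of these data known. Positions are from GENCODE M21 (GRCm38), matched by name for 35283 rows (89.5%), and promoters from RefSeq. Alternatives were another pseudocount (0.1), no filter, quantile normalization, fits of fewer groups, a mouse block and leaving out each mouse. After the data were seen, a fit with sex as a term and one without SMA mice 196 and 199, whose library numbers are lowest, were added.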

Additional observations from a re-analysis of the deposited data

Results flagged for a closer look

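A sample far from the rest of its group was looked for in 130 groups of 4 or 5 mice, and 15 were found. Chance gives about 1 in 20, but in 5 of the 15 every other mouse was at 0, so that any value above 0 stands out and that rate does not apply. Among controls, mouse 253 stood above the others for Cdkn1a (15.4 RPKM), Cox6b2 (45.4), Snord13 (6.74) and the summed oligodendrocyte precursor markers (19.95). Control 254 stood out for Ly6d (0.395), Sdhd (198.3) and Ptprv (6.13), control 247 for Tnfrsf26 (0.124) and Gemin4 (13.4), and control 252 for the summed microglia (31.7) and Schwann cell markers (7.68). Among SMA mice, 196 stood out for Snord13 (67.3) and the summed lumbar level markers (217.8), and 250 for Irgm1 (72.6) and BC049762 (0.488).

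The genotype difference at day 10 differed between lumbar and facial neurons for Bglap2 by −3.07 (limma interaction, log2 scale). Between lumbar and vagus neurons it differed for 25 genes. Among p53 targets these were Cdkn1a (4.67), Fas (3.52), Pmaip1 (2.76), Plk2 (2.39), Ccng1 (2.15) and Tnfrsf26 (1.602). The larger of the others were Ly6d (5.47), Cpne2 (3.98), Trim72 (3.76), Gm11974 (3.47), Bglap (3.14), Tcea3 (2.78), Slc13a4 (2.51), Gys1 (2.39), Robo3 (2.21), Scn3b (2.18) and Fam212b (2.18). The rest were Bglap2 (1.87), Sec16b (1.58), Rin1 (1.52), Gnl3 (1.48), Ces2e (1.23), Lsm3 (1.01), Rabggtb (0.94) and Arhgap9 (−1.88). Of the 25, 13 did not reach the filter on low values in the vagus neurons alone: Fas, Pmaip1, Tnfrsf26, Ly6d, Tcea3, Arhgap9, Ces2e, Slc13a4, Bglap, Sec16b, Rin1, Robo3 and Bglap2. Bglap2 did not reach it in the lumbar neurons alone either.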

How the results depend on the processing

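The 116 rises became 105 with a pseudocount of 0.1, 102 with no filter, 87 after quantile normalization and 88 with only the day 10 groups fitted. The 11 falls became 13, 12, 24 and 8 in the same settings. With only the day 10 groups, 69 of the 116 rises and 4 of the 11 falls were among the calls. Added after the data were seen, leaving out SMA mice 196 and 199 gave 109 rises and 17 falls, and sex as a term gave 108 and 13. Leaving out 1 mouse at a time gave 58 to 124 rises and 6 to 16 falls. Of the rises 35, and of the falls Smn1 and Snhg11, passed in all 15 settings. In the lumbar fits without 1 mouse, no named gene changed direction. The median difference of all tested genes went from 0.05 to −0.015 after quantile normalization and to 0 with no filter. For day 10 against day 2, genes past the interaction threshold numbered 0 to 3 over the fits without 1 mouse and 3 without SMA mice 196 and 199. For day 10 against day 5 they numbered 0 to 1, and 1 with only days 5 and 10 fitted. Against ocular neurons 1 passed with no filter and 0 to 4 without 1 mouse. Against facial neurons 0 passed with a pseudocount of 0.1 or with only day 10 groups, and 1 to 5 without 1 mouse. Against vagus neurons 11 passed with only day 10 groups and 12 to 35 without 1 mouse. With the mouse as a block for the pairing by animal, 0 passed against ocular, 1 against facial and 28 against vagus neurons, and each count stayed within 1.5 times the one without the block. The causes were not tested. Depth limits genes at few RPKM, where 3 reads decide whether a gene is listed at 0.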

Other observations

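Further genes among the rises are given here by their values, singled out after these were seen and from no fixed list. Fabp3, a fatty acid carrier, had means of 75.8 and 122 RPKM in control and SMA lumbar neurons at day 10 (log2 0.67, limma adjusted p = 0.00244). Acadm, an enzyme of fatty acid oxidation, had 23.2 and 53.8 (1.23, adjusted p = 0.0173), and Slc27a3, of the fatty acid transport protein family, 3.88 and 15.2 (1.83, adjusted p = 0.00795). Ldha, lactate dehydrogenase A, read 106, 119, 110.1 and 111 in controls and 162, 173, 154, 172 and 174 in SMA mice (0.58, adjusted p = 0.0173). Gys1, glycogen synthase, read 54.9, 45.3, 71.6 and 58.8 against 199, 87.6, 220.1, 368 and 169 (1.71, adjusted p = 0.0226). Gpx3, a glutathione peroxidase, read 33.7, 54.3, 49.4 and 46.4 against 112, 74.6, 118, 133 and 142 (1.31, adjusted p = 0.000307), and Gsto1, a glutathione transferase, had means of 69.3 and 128 (0.88, adjusted p = 0.0237). The genotypes overlapped for Acadm and for none of the other 6 genes. Of the 9 fits with 1 mouse left out, Fabp3 and Gpx3 passed in 9, Slc27a3 in 8, Ldha in 7, Acadm and Gys1 in 4 and Gsto1 in 3.

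The chemokine Ccl17, also singled out afterwards, had one of the tightest separations. It read 101, 95.8, 117 and 162 in controls and 349, 387, 329, 377 and 378 in SMA mice (log2 1.63, SE 0.21, adjusted p = 3.9e-05), and was at 1.88 in ocular, 2.11 in facial and −0.10 in vagus neurons. Scn3b, a sodium channel beta subunit, had means of 2.57 and 11.2 (1.98, adjusted p = 0.000307). Mak16 and Brix1, factors of ribosome assembly in the nucleolus, had means of 13.01 and 28.1 and of 10.6 and 19.8 (adjusted p = 0.0209 and 0.0357), and passed in 4 and 2 of the 9 fits. Sf3b5, of the U2 snRNP but outside the list used above, had means of 91.1 and 189.5 (1.07, adjusted p = 0.0201, 5 of 9 fits).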
